A study of Mus musculus with 50 samples.

Results

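H3K4 demethylases are enzymes that take methyl groups off lysine 4 of histone H3, and 4 of their genes, *Kdm1a*, *Kdm1b*, *Kdm5a* and *Kdm5b*, were followed in the frontal cortex of mice from the embryo to the adult. The 4 genes were chosen by name and found by symbol in the gene annotation, and they were 4 of 55487 genes counted in each library and 4 of 21897 protein-coding genes. The study addressed what a lowered dose of *Setd1a*, a gene for an enzyme that adds methyl groups at the same lysine, does to the developing brain. Wild-type mice (WT) were compared with mice carrying a loss-of-function tm1d allele on 1 of their copies of *Setd1a* (Setd1a+/-). Bulk RNA from the frontal cortex was sequenced at embryonic days E14 and E18 and postnatal days P7, P35 and P70, with 5 mice of each genotype at each age, which gave 10 groups and 50 libraries. All mice were described as male. The sample labels name the strain C57BL/6NTac, whereas the study's methods describe a mixed C57BL/6NTac and C57BL/6J background and place both embryonic collections later within the labelled days. Those methods describe the dissected tissue as frontal brain regions in embryos and as frontal cortex in postnatal mice, so the description changes between E18 and P7. The deposited values were raw fragment counts per gene, and the total per library ran from 35507165 to 43907318.

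The tissue label was checked against marker genes, in CPM, counts scaled to a common library size. The 6 cortical genes summed to 1663 CPM in E14 WT mice and to 499 CPM in P70 WT mice. The 5 hindbrain genes summed to 0.025, 0.015, 1.42, 0.052 and 0.125 CPM in WT mice in order of age.

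The libraries did not all match their labels. E14 WT replicate 5 held 60159 counts of *Xist*, a transcript of female cells, and E18 WT replicate 2 held 55644, with at most 11 counts over 4 Y-linked genes, while the other 48 libraries held at most 27 *Xist* counts and at least 4711 counts of the Y-linked genes. Another library, P7 WT replicate 2, stood apart from its group in many genes. The standard deviation over genes of its differences from the group mean was 0.55 on the log2 scale, against 0.22 to 0.27 in the other P7 libraries. Its choroid plexus markers summed to 623.9 CPM, against 4.48 to 7.07 CPM in the other P7 libraries, and its 6 cortical markers summed to 284 CPM, against 638 to 721 CPM. Its hindbrain markers summed to 6.74 CPM, against at most 0.162 CPM in the other P7 libraries. Results for the demethylase genes are therefore given with these 3 libraries and without them. At E14 and E18 the same standard deviation ran from 0.25 to 0.483, and the highest was that of E14 Setd1a+/- replicate 2, which had the lowest *Kdm1a*, *Kdm1b* and *Kdm5a* levels of its group.

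Methylation of this lysine marks promoters and enhancers, and it is set by a balance of enzymes that add and remove it. *Kdm1a* (LSD1) and *Kdm1b* (LSD2) encode flavin-dependent amine oxidases, which take off the mono- and dimethyl forms. *Kdm5a* and *Kdm5b* encode JmjC-domain dioxygenases, which act on the trimethyl and dimethyl forms, so the 4 genes span both chemical routes by which the mark is removed. In the brain, KDM1A works with the CoREST proteins and histone deacetylases to keep neuronal genes silent in other cells, and a splice form with a very short extra exon is made in neurons.

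*Setd1a* itself was read first as a check on the genotype labels. It is the gene on chr7:127776670-127800122 (GRCm38), with 6795 exonic bases, and 52.3% of them overlap exons of other genes, mainly *Gm49388*. Its levels are given, as those of the other genes, in RPKM, counts scaled to a common library size and divided by exonic length, in the order of replicates 1 to 5. At E14 they were 18.99, 19.1, 20.1, 17.5 and 17.5 RPKM in WT and 22.1, 20.1, 18.8, 20.6 and 19.1 in Setd1a+/- mice. At E18 they were 13.8, 14.1, 13.9, 12.6 and 14.7 RPKM in WT and 15.3, 17.2, 14.3, 15.3 and 16.7 in Setd1a+/- mice. The Setd1a+/- values were thus in the WT range or above it at both embryonic ages. At P7 the WT values were 10.7, 11.2, 10.3, 10.4 and 10.5 RPKM and the Setd1a+/- values 12.1, 11.5, 11.2, 12.3 and 12.3. At P35 the WT values were 13.5, 12.1, 12.02, 12.5 and 12.5 RPKM and the Setd1a+/- values 13.5, 12.97, 12.996, 13.2 and 13.5. At P70 the WT values were 12.4, 13.05, 12.5, 12.01 and 13.5 RPKM and the Setd1a+/- values 12.1, 12.7, 11.99, 11.3 and 14.4. The WT and Setd1a+/- values overlapped at P70, where the Setd1a+/- mean was the lower (12.48 against 12.7 RPKM), and with age as a covariate *Setd1a* was higher in Setd1a+/- mice by log2 0.10 (SE 0.025, adjusted p 0.00679). Counts over the whole gene take in exons outside the deleted part and exons of the overlapping gene, so the genotype labels were not checked by them. All p values here are from edgeR's quasi-likelihood test, adjusted by Benjamini and Hochberg over 16330 tested protein-coding genes unless called unadjusted, and a gene was called at an adjusted p under 0.05.

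The 4 demethylase genes lie on 4 chromosomes of GRCm38. *Kdm1a* (ENSMUSG00000036940) is on the minus strand at chr4:136550540-136602723 with 5179 exonic bases, and *Kdm1b* (ENSMUSG00000038080) is on the plus strand at chr13:47043499-47085279 with 5495. *Kdm5a* (ENSMUSG00000030180) is on the plus strand at chr6:120364124-120444574 with 14158 exonic bases, and *Kdm5b* (ENSMUSG00000042207) is on the plus strand at chr1:134560171-134635285 with 16555. All 4 passed the filter on low counts, with 614 to 3234 counts per library for *Kdm1b*, the least counted, and 2022 to 12227 for *Kdm1a*, the most counted. The last 505 bases of *Kdm1b*, 9.19% of its exonic length, are also the end of *Dek* on the other strand (chr13:47084775-47085279), and the fragments were counted without regard to strand. *Kdm5a* shares 251 bases with *Ccdc77*, 1.77% of its exonic length. *Kdm1a* and *Kdm5b* share no exonic base with another gene. Gene counts do not separate splice forms, so the neuronal form of *Kdm1a* was not measured.

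Promoter sequence from RefSeq (GRCm38.p6) is shown for *Kdm1a*, *Kdm1b* and *Kdm5b*, the 3 of the 4 genes that matched the table used here, because each fell over 3-fold from E14 to P70 in WT mice, though not by the same steps. Each run is 240 bases, 5′ to 3′ on the gene's strand, and ends upstream of the annotated start. Capitals mark a match, on either strand, to the GC box GGGCGG, to TGACGT from the cyclic AMP response element, to the palindrome GACGTC, or to the box CCAAT. The second motif and the palindrome can share 5 bases, and no base in these runs belonged to more than 1 match. The runs are chr4:136602734-136602973 on the minus strand for *Kdm1a*, chr13:47043249-47043488 on the plus strand for *Kdm1b*, and chr1:134559928-134560167 on the plus strand for *Kdm5b*.
Kdm1a: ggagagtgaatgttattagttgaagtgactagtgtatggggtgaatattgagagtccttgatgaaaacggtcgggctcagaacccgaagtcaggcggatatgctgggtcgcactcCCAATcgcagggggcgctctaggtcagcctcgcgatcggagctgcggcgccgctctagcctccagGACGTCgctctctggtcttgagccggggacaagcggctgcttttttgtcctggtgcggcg
Kdm1b: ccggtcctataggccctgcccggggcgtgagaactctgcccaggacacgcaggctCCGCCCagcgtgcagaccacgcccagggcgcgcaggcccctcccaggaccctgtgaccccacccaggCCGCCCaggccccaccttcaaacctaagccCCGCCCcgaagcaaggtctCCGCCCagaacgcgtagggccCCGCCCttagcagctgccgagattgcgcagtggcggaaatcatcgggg
Kdm5b: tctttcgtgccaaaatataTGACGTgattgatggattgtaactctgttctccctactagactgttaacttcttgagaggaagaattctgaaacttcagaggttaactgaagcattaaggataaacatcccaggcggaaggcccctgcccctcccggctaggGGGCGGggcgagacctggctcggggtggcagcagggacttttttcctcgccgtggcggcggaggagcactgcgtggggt
The runs differed in composition, with 58.3% G and C and 19 CpG in *Kdm1a*, 70.8% and 20 in *Kdm1b*, and 54.2% and 12 in *Kdm5b*, against medians of 52.1% and 5 over the same window of 32851 promoters. GGGCGG, which 31.3% of those promoters hold, was found 5 times in *Kdm1b*, 1 time in *Kdm5b* and 0 times in *Kdm1a*. CCAAT, held by 33.0%, and GACGTC, held by 3.52%, were each found 1 time in *Kdm1a* and 0 times in the others. TGACGT, held by 6.09%, was found 1 time in *Kdm5b* and 0 times in the others. The core of the NRF1 motif, held by 4.51%, and TATAAA, held by 12.1%, were found in none of the 3 runs. None of the 6 motifs was thus in all 3 promoters, and a match here is a run of letters and not a measured site.

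The first comparison asked how each gene changed with age in WT mice. *Kdm1a*, the gene for the oxidase of the CoREST complex, was read at 56.96, 58.2, 58.5, 55.2 and 55.8 RPKM at E14 and at 37.3, 41.7, 36.6, 35.1 and 42.5 RPKM at E18. The E18 values fell into a higher pair, replicates 2 and 5, and a lower group of 3, and all 5 were below every E14 value. *Kdm1a* was then 21.8, 23.6, 21.001, 20.3 and 21.3 RPKM at P7, 13.9, 13.7, 13.9, 13.8 and 14.01 at P35 and 11.98, 11.03, 12.2, 11.99 and 12.8 at P70. No WT values of consecutive ages overlapped, although at P35 and P70 they came within about 1 RPKM of each other. The group means were 56.9 (SD 1.44), 38.6 (SD 3.26), 21.6 (SD 1.25), 13.9 (SD 0.127) and 12.0 (SD 0.641) RPKM in order of age. *Kdm1a* fell at each step, by log2 0.56 from E14 to E18 (SE 0.0445, adjusted p 2.43e-14), by 0.84 from E18 to P7 (SE 0.0449, adjusted p 2.41e-20) and by 0.64 from P7 to P35 (SE 0.0451, adjusted p 8.61e-17). The last step was small, log2 -0.21 from P35 to P70 (SE 0.0452, adjusted p 0.0124). That last call was near the threshold. It was also made by limma-voom (adjusted p 0.00754) and DESeq2 (adjusted p 0.00169), and it was lost without P35 WT replicate 5 (log2 -0.20, adjusted p 0.0517), without P70 WT replicate 2 (log2 -0.18, adjusted p 0.0848) and when only the 25 WT libraries were fitted (log2 -0.21, adjusted p 0.0959), with the change about as large each time. From E14 to P70 *Kdm1a* fell 4.74-fold (log2 -2.25, SE 0.0467, adjusted p 8.54e-37). In bulk tissue, fewer cells of a type and less RNA per cell cannot be told apart, which holds for every change with age given here.

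Setd1a+/- mice were read for the same course of *Kdm1a*. Its levels were 57.7, 51.6, 55.6, 55.2 and 53.7 RPKM at E14, 38.6, 42.2, 36.5, 38.9 and 39.9 at E18 and 21.9, 21.4, 22.04, 21.3 and 21.6 at P7. They were 13.8, 14.01, 13.9, 14.2 and 13.2 RPKM at P35 and 11.9, 11.5, 11.5, 12.3 and 12.97 at P70. As in WT mice, every value lay below every value of the age before it. The steps were log2 -0.48, -0.86, -0.65 and -0.20, all called (adjusted p 0.00848 for the last), and the fall from E14 to P70 was 4.55-fold.

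*Kdm1b*, the gene for the oxidase that lacks the CoREST partnership and is known for its role in oocytes, was lower and changed on another schedule. Its WT levels were 12.4, 12.9, 13.1, 13.7 and 13.9 RPKM at E14, 9.798, 10.9, 10.7, 9.46 and 10.7 at E18 and 7.95, 8.27, 8.68, 8.32 and 8.48 at P7. They were 4.05, 4.16, 4.07, 4.17 and 4.42 RPKM at P35 and 3.66, 3.58, 3.32, 4.21 and 3.83 at P70. The values of consecutive ages did not overlap up to P35, while P35 and P70 overlapped. The largest gap lay between P7, where the lowest of the 5 was 7.95 RPKM, and P35, where the highest was 4.42 RPKM. The means were 13.2 (SD 0.614), 10.3 (SD 0.650), 8.34 (SD 0.270), 4.17 (SD 0.146) and 3.72 (SD 0.328) RPKM. *Kdm1b* fell by log2 0.35 from E14 to E18 (SE 0.0533, adjusted p 1.94e-07), by 0.31 from E18 to P7 (SE 0.0536, adjusted p 2.62e-06) and by 0.999 from P7 to P35 (SE 0.0549, adjusted p 1.88e-20). The step from P35 to P70 was not called in WT mice (log2 -0.17, SE 0.0554, adjusted p 0.165), although it was without P70 WT replicate 4 (log2 -0.21, adjusted p 0.0464). From E14 to P70 the fall was 3.55-fold (log2 -1.83, SE 0.0558, adjusted p 7.84e-31).

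The *Kdm1b* levels in Setd1a+/- mice were 12.96, 11.5, 14.2, 12.9 and 13.4 RPKM at E14, 10.1, 10.6, 9.91, 10.4 and 9.44 at E18 and 8.82, 8.82, 8.67, 8.18 and 8.74 at P7. They were 3.88, 3.91, 3.65, 4.33 and 3.85 RPKM at P35 and 3.78, 3.64, 4.27, 4.15 and 4.28 at P70. Again the ages up to P35 did not overlap and P35 overlapped P70. The steps were log2 -0.36 (adjusted p 9.22e-08), -0.22 (adjusted p 0.000338), -1.14 (adjusted p 1.74e-22) and 0.03 (adjusted p 0.842), and the fall from E14 to P70 was 3.23-fold.

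The 505 bases shared with *Dek* weighed on the *Kdm1b* values, because *Dek*, which encodes a chromatin protein, had the higher level. *Dek* was at 45.1, 37.2, 44.9, 57.6 and 67.2 RPKM in E14 WT mice and at 16.9, 16.2, 16.2, 18.6 and 17.2 RPKM in P70 WT mice. The E14 values were spread widely, with the highest in replicate 5, which held *Xist* counts. *Dek* fell by log2 0.90 from E14 to E18 (adjusted p 2.79e-10) and by 0.47 from E18 to P7 (adjusted p 7.34e-05) in WT mice, and its later steps were not called (log2 -0.17 with adjusted p 0.131 and log2 -0.02 with adjusted p 0.972). A setting added after the data were seen took from *Kdm1b* the fragments that *Dek* would give over the shared bases if it were covered evenly. In order of age it removed 34.9%, 24.1%, 21.5%, 38.0% and 42.1% of the *Kdm1b* level in WT mice. The E14 WT values became 8.25, 9.45, 8.97, 8.37 and 7.74 RPKM and the E18 WT values 7.46, 8.29, 8.21, 7.13 and 8.09, and these overlapped. The step from E14 to E18 was then not called in WT mice (log2 -0.13, adjusted p 0.101) or in Setd1a+/- mice (log2 -0.08, adjusted p 0.287). The step from P7 to P35 was larger, log2 -1.34 in WT and -1.58 in Setd1a+/- mice, and the change from E14 to P70 was log2 -1.99 and -1.79. The call of the early decline of *Kdm1b* and the sizes of its steps thus depended on how the shared bases were treated, while the P7 to P35 step was called either way. How evenly *Dek* was covered was not measured.

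**Figure D1:**
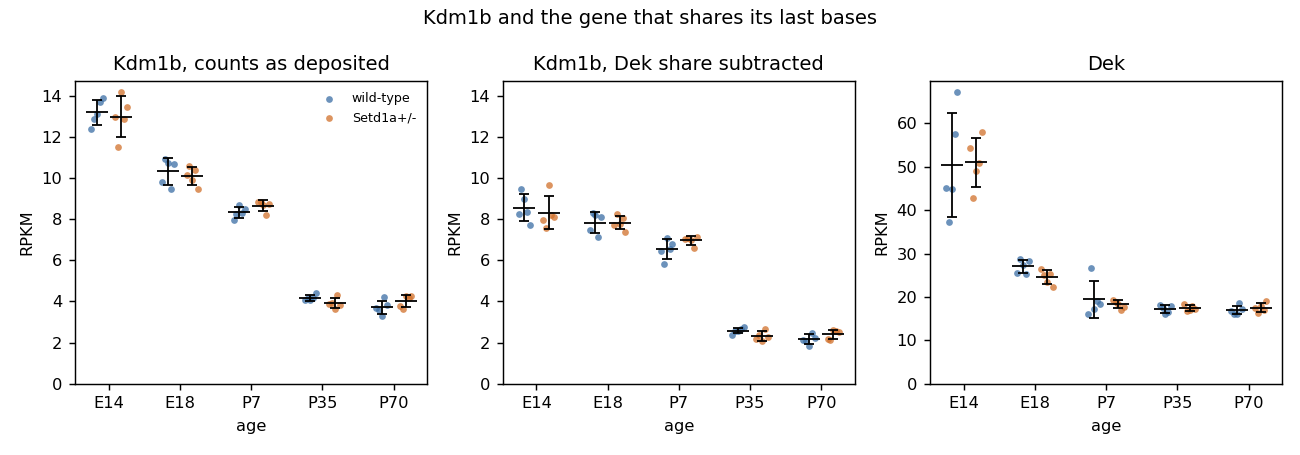
Levels in RPKM (vertical axes) by age (horizontal axes) of *Kdm1b* as counted, *Kdm1b* with the *Dek* share of the common 505 bases subtracted, and *Dek*; points are libraries, 5 for each genotype and age, and bars show the mean and SD. After subtraction the WT means of *Kdm1b* are 8.56 RPKM at E14 and 7.84 RPKM at E18, while the drop between P7 (6.55 RPKM) and P35 (2.59 RPKM) remains.

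*Kdm5a*, the gene for a trimethyl demethylase first found as a partner of the retinoblastoma protein, was the only member called higher at any step. Its WT levels were 6.54, 6.47, 7.17, 6.71 and 7.02 RPKM at E14, 4.61, 5.04, 4.65, 4.31 and 5.29 at E18 and 2.72, 2.88, 2.53, 2.53 and 2.62 at P7. They were 3.77, 3.34, 3.81, 3.63 and 3.62 RPKM at P35 and 3.51, 3.62, 3.57, 3.305 and 3.73 at P70. The 5 lowest of the 25 WT values were the 5 of P7, and every P35 value lay above all of them, whereas P35 and P70 overlapped. The highest P7 value, 2.88 RPKM, was that of replicate 2, the library that stood apart. The means were 6.78 (SD 0.303), 4.78 (SD 0.386), 2.66 (SD 0.149), 3.63 (SD 0.184) and 3.55 (SD 0.157) RPKM. *Kdm5a* fell by log2 0.50 from E14 to E18 (SE 0.0502, adjusted p 1.01e-11) and by 0.85 from E18 to P7 (SE 0.0509, adjusted p 9.60e-19). It then rose 1.37-fold from P7 to P35 (log2 0.45, SE 0.0509, adjusted p 1.41e-10), and the step to P70 was not called (log2 -0.03, SE 0.0506, adjusted p 0.892). From E14 to P70 it fell 1.91-fold (log2 -0.94, SE 0.0507, adjusted p 1.54e-21).

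In Setd1a+/- mice the *Kdm5a* levels were 7.25, 6.01, 6.34, 6.65 and 7.29 RPKM at E14, 4.93, 4.63, 4.33, 4.62 and 4.804 at E18 and 2.67, 2.71, 2.496, 2.82 and 2.74 at P7. They were 3.74, 3.68, 3.64, 3.69 and 3.47 RPKM at P35 and 3.695, 3.87, 3.82, 3.68 and 3.797 at P70. The low point at P7 was there too, with no P7 value reaching the lowest of P35. The steps were log2 -0.52, -0.80 and 0.44 (adjusted p 2.73e-10 for the rise), then 0.05 from P35 to P70, which was not called (adjusted p 0.707). The fall from E14 to P70 was 1.78-fold. Taking out the 251 bases shared with *Ccdc77* removed under 1% of the *Kdm5a* level in each group, for example 0.724% in E14 WT mice.

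*Kdm5b*, the gene for the other trimethyl demethylase and known for its expression in dividing progenitors, made most of its change around birth. Its WT levels were 15.3, 16.9, 15.8, 13.8 and 12.7 RPKM at E14, 11.01, 12.5, 10.8, 10.6 and 12.98 at E18 and 5.28, 4.998, 4.802, 5.21 and 4.74 at P7. They were 4.31, 3.79, 3.69, 3.895 and 3.57 RPKM at P35 and 3.99, 3.93, 4.195, 3.64 and 3.69 at P70. E14 and E18 overlapped in WT mice, where E14 replicate 5 was the lowest at 12.7 RPKM and E18 replicate 5 the highest at 12.98 RPKM. The overlap rested on E14 replicate 5, which held *Xist* counts, since the next lowest E14 value was 13.8 RPKM. Every P7 value was below all of E18, and P35 overlapped P70. The means were 14.9 (SD 1.67), 11.6 (SD 1.08), 5.01 (SD 0.240), 3.85 (SD 0.286) and 3.89 (SD 0.227) RPKM. *Kdm5b* fell by log2 0.36 from E14 to E18 (SE 0.0650, adjusted p 4.81e-06), by 1.21 from E18 to P7 (SE 0.0661, adjusted p 4.42e-20) and by 0.38 from P7 to P35 (SE 0.0659, adjusted p 2.36e-06). Its step from P35 to P70 was not called (log2 0.01, SE 0.0660, adjusted p 0.972), and the fall from E14 to P70 was 3.83-fold (log2 -1.94, SE 0.0676, adjusted p 1.14e-28).

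The *Kdm5b* levels in Setd1a+/- mice were 15.3, 15.1, 14.6, 14.3 and 13.001 RPKM at E14, 12.6, 12.6, 10.3, 11.7 and 11.8 at E18 and 4.95, 5.25, 4.65, 4.92 and 5.32 at P7. They were 4.33, 4.01, 3.79, 3.89 and 3.71 RPKM at P35 and 3.89, 3.59, 4.09, 3.79 and 3.95 at P70. E14 and E18 did not overlap in these mice, and P35 and P70 did. The steps were log2 -0.29 (adjusted p 0.000116), -1.23, -0.35 (adjusted p 1.11e-05) and -0.03 (adjusted p 0.883), with a fall from E14 to P70 of 3.75-fold.

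**Figure D2:**
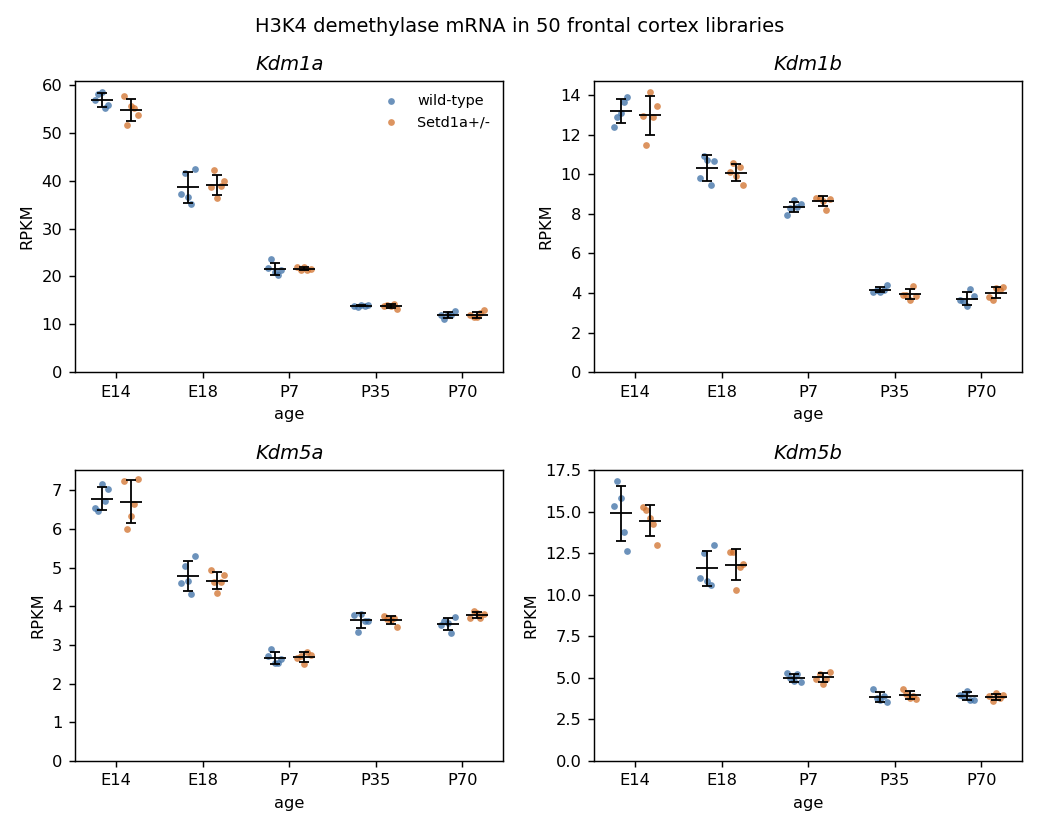
Level of each demethylase gene in RPKM (vertical axes) by age (horizontal axes) in WT and Setd1a+/- mice; points are libraries, 5 for each genotype and age, and bars show the mean and SD. *Kdm1a* declines from 56.9 to 12.0 RPKM in WT mice over the 5 ages, and *Kdm5a* has its lowest mean, 2.66 RPKM, at P7.

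The counts of called genes were read against all tested genes. All 4 demethylase genes were called from E14 to E18 in WT mice, where 65.9% of tested genes were called and 34.1% were called as lower. All 4 were called from E18 to P7, where 67.3% of tested genes were called and 33.4% as lower. From P7 to P35 all 4 were called, 3 as lower and 1 as higher, where 67% of tested genes were called, 34.3% as lower and 32.6% as higher. From P35 to P70 only *Kdm1a* of the 4 was called, where 1.06% of tested genes were called and 0.527% as lower. Over E14 to P70 all 4 were called lower, where 85.6% of tested genes were called and 42.9% as lower. In Setd1a+/- mice the same genes were called at each step, where the shares of tested genes called were 64.5%, 67.8%, 67.8% and 2.98% in order of the steps and 85.3% from E14 to P70. The shares called lower there were 32.5%, 35%, 33.3%, 1.47% and 43% in the same order. Most tested genes thus changed with age, so that being called set these 4 genes little apart, and the size of their change said more. The share of tested genes with a more negative change from E14 to P70 in WT mice was 6.22% for *Kdm1a*, 8.04% for *Kdm5b*, 8.83% for *Kdm1b* and 22.1% for *Kdm5a*. The rise of *Kdm5a* from P7 to P35 was of a common kind, since 32.6% of tested genes were called higher at that step in WT mice and 34.5% in Setd1a+/- mice. Over the 4 genes, 4 steps and both genotypes, the values of consecutive ages did not overlap in 25 of 32 cases, with *Kdm1b* as counted. Among the overlaps, 1, that of *Kdm5b* between E14 and E18 in WT mice, rested on the library with *Xist* counts. With the *Dek* share subtracted, the E14 and E18 values of *Kdm1b* overlapped in both genotypes. Overlaps were not counted over all tested genes, so the 25 of 32 cases give no result about these 4 genes.

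**Figure D3:**
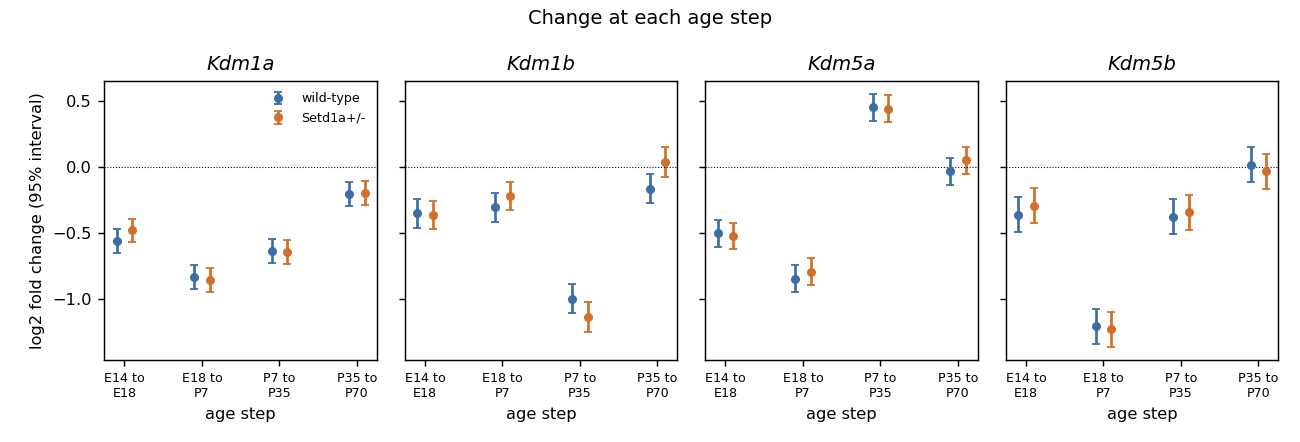
Change per age step in log2 units (vertical axes) for each demethylase gene, with 95% confidence intervals, in WT and Setd1a+/- mice. The largest WT steps are the one from E18 to P7 for *Kdm1a* (-0.84), *Kdm5a* (-0.85) and *Kdm5b* (-1.21), and the one from P7 to P35 for *Kdm1b* (-0.999), and only *Kdm5a* has a step well above 0.

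The steps given in this paragraph were still called without the doubtful libraries. Their sizes moved most for *Kdm5b* from E14 to E18 in WT mice, which was log2 -0.36 with all libraries. Without the 2 libraries that held *Xist* counts, the WT step from E14 to E18 was log2 -0.60 for *Kdm1a*, -0.36 for *Kdm1b*, -0.51 for *Kdm5a* and -0.45 for *Kdm5b*. The next WT step, E18 to P7, was then -0.81, -0.29, -0.83 and -1.18 in the same order. The WT change from E14 to P70 was then -2.26, -1.81, -0.93 and -1.997, and each of these 12 changes was still called. Without P7 WT replicate 2, the WT step from E18 to P7 was log2 -0.87, -0.30, -0.88 and -1.21, and that from P7 to P35 was -0.61, -1.002, 0.48 and -0.38, all called. The rise of *Kdm5a* after P7 was thus present without the library that stood apart. The adjusted p of the WT step of *Kdm1a* from P35 to P70 was 0.00595 without that library. Without E14 Setd1a+/- replicate 2, the Setd1a+/- step from E14 to E18 was log2 -0.502 for *Kdm1a*, -0.41 for *Kdm1b*, -0.56 for *Kdm5a* and -0.28 for *Kdm5b*, all called, and 0 of the 4 genes were called by genotype.

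Markers of cell types changed with age in the same libraries, and their part in the changes of the 4 genes was not tested. In WT mice the 8 progenitor genes, led by *Vim*, summed to 2089.5, 740.2, 316, 139 and 126 CPM in order of age. Here the gene that leads a list is the most abundant over all libraries. The 8 neuronal genes, led by *Map2*, summed to 3238, 4042, 5118, 7258 and 7496 CPM, and the 6 interneuron genes, led by *Gad1*, to 479, 426, 465, 945 and 979 CPM. The 6 astrocyte genes, led by *Slc1a3*, went from 295 to 1629.7 CPM, the 6 oligodendrocyte genes, led by *Mbp*, from 96.4 to 4034 CPM, and the 6 microglial genes, led by *Csf1r*, from 42.4 to 229 CPM. Progenitor markers and all 4 demethylase genes thus had their highest WT means at E14. From E14 to P70 the neuronal, astrocyte, oligodendrocyte and microglial sums rose, while the 4 demethylase genes fell. The interneuron sum was no higher at P7 than at E14, although the 4 demethylase genes fell between those ages. The 4 genes of oligodendrocyte precursors, led by *Olig1*, summed to 73.9 CPM at E14, 341 at P7 and 221 at P70, and the endothelial genes to 175, 325 and 288 CPM. *Hbb-bs* led the red blood cell genes, which summed to 507 CPM at E14 and 143 CPM at P70, and *Ttr* led those of the choroid plexus, at 216 and 9.16 CPM, with a wide spread at E14 (0.94 to 412 CPM). *Ppp1r1b* led the striatal genes, at 100.04 and 802 CPM. Apart from the hindbrain list, no list had a gene with 0 counts in a whole WT group. In P7 WT replicate 2 the progenitor genes summed to 553 CPM, against 201.9 to 289 CPM in the other P7 libraries, and the same library had the highest *Kdm1a* and *Kdm5a* levels of its group. Its *Kdm5b* level, 4.998 RPKM, and its *Kdm1b* level as counted, 8.27 RPKM, lay within the range of the other P7 WT libraries. With the *Dek* share subtracted, its *Kdm1b* level, 5.82 RPKM, was the lowest of its group.

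Comparing levels between genes needed a value per length, and RPKM over all annotated exons was used. *Kdm1a* was the highest of the 4 at all 5 ages in both genotypes without overlap, at 3.82 times the next gene in E14 WT mice and 2.59 times at P7. *Kdm5b* and *Kdm1b* came next and overlapped at E14, E18, P35 and P70, so that their order there, with *Kdm1b* as counted, was within the spread. At P7 *Kdm1b* was above *Kdm5b* without overlap, 1.67 times in WT and 1.72 times in Setd1a+/- mice. *Kdm5a* was the lowest at E14, E18 and P7 without overlap, and at P35 and P70 it overlapped its neighbours. As counted and on this scale, only *Kdm1a* was thus apart from the others at P35 and P70. Among all tested genes, the share with a lower level fell from 95.9% at E14 to 72.1% at P70 for *Kdm1a* in WT mice, and from 56.3% to 41.8% for *Kdm5a*. It fell from 73.6% to 42.9% for *Kdm1b* and from 76.8% to 44.0% for *Kdm5b*.

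The order of the lower 3 genes depended on the length used, since the annotated exons include those of minor transcripts. With the length of the principal transcript, another setting added after the data were seen, *Kdm5b* was above *Kdm1b* without overlap in WT mice, 1.95 times at E14 and 1.93 times at E18. At P7 the order of *Kdm1b* over *Kdm5b* was lost, as *Kdm5b* was then at 1.04 times *Kdm1b* in WT and 1.001 times in Setd1a+/- mice, with overlap. *Kdm5b* was also above *Kdm5a*, the next gene, without overlap, 1.56 times at P35 and 1.61 times at P70 in WT mice and 1.59 and 1.503 times in Setd1a+/- mice. *Kdm1a* was the highest gene at all ages with either length. The order also depended on the *Dek* share of *Kdm1b*. With that share subtracted, over all annotated exons, *Kdm5b* was above *Kdm1b* without overlap in WT mice at E14 (1.74 times) and at E18 (1.48 times). *Kdm1b* was still above *Kdm5b* at P7 (1.31 times), and at P35 and P70 it was the lowest gene, without overlap, in both genotypes. *Kdm5a*, the next gene up, was then at 1.397 times *Kdm1b* at P35 and 1.64 times at P70 in WT mice.

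Levels within a library gave the balance between members of each enzyme class. The ratio of *Kdm5b* to *Kdm5a* was 2.20 (SD 0.302) at E14 in WT mice, 2.42 (SD 0.0612) at E18, 1.89 (SD 0.126) at P7, 1.06 (SD 0.0813) at P35 and 1.10 (SD 0.0697) at P70. Over all annotated exons the dioxygenase genes therefore went from a ratio above 2 in the embryo to near-equal levels in the adult, which did not hold with the principal transcript length. In Setd1a+/- mice the ratio was 2.17, 2.53, 1.87, 1.08 and 1.02. The ratio of *Kdm1a* to *Kdm1b* was 4.33 (SD 0.280), 3.74 (SD 0.210), 2.60 (SD 0.195), 3.32 (SD 0.105) and 3.25 (SD 0.308) in WT mice in order of age. It was lowest at P7 in both genotypes, and the Setd1a+/- means were 4.23, 3.89, 2.50, 3.53 and 3.00. With the *Dek* share of *Kdm1b* subtracted, the WT ratio was 6.68 (SD 0.399), 4.93 (SD 0.292), 3.33 (SD 0.438), 5.37 (SD 0.272) and 5.62 (SD 0.682), again lowest at P7. The ratios were not tested. Summed over the 4 genes, the WT level was 91.8, 65.3, 37.6, 25.5 and 23.2 RPKM in order of age. *Kdm1a* made up 62.0% of that sum at E14 and 51.8% at P70, while *Kdm5a* went from 7.39% to 15.3%.

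**Figure D4:**
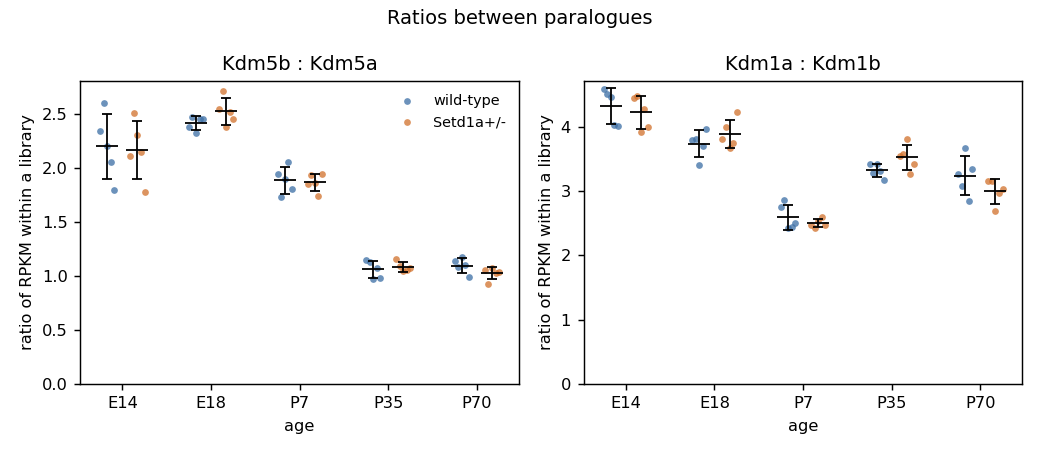
Ratio of RPKM values over all annotated exons within each library (vertical axes) of *Kdm5b* to *Kdm5a* and of *Kdm1a* to *Kdm1b* by age (horizontal axes); points are libraries, 5 for each genotype and age, and bars show the mean and SD. The first ratio drops from 2.20 at E14 to 1.10 at P70 in WT mice, and the second, with *Kdm1b* as counted, has its lowest WT mean, 2.60, at P7.

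The second comparison asked whether any of the 4 genes differed between WT and Setd1a+/- mice. The WT and Setd1a+/- values overlapped for every gene at every age, in 20 of 20 cases. With age as a covariate the difference was log2 -0.0068 (SE 0.0195, adjusted p 0.933) for *Kdm1a* and 0.0037 (SE 0.0253, adjusted p 0.978) for *Kdm1b*. It was log2 0.011 (SE 0.0224, adjusted p 0.901) for *Kdm5a* and 0.0026 (SE 0.0283, adjusted p 0.986) for *Kdm5b*. The 95% confidence interval of the change ran from -3.14% to 2.27% for *Kdm1a*, from -3.21% to 3.85% for *Kdm1b*, from -2.34% to 3.97% for *Kdm5a* and from -3.70% to 4.21% for *Kdm5b*. The data thus bounded a common effect of the genotype on each gene to under 5% in either direction. By edgeR 0 of the 4 genes were called, where 4.43% of tested genes were, and 0 of the 4 had an unadjusted p under 0.05 by edgeR, limma-voom or DESeq2. A count of 0 among 4 genes is near that background and is no result about these genes.

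**Figure D5:**
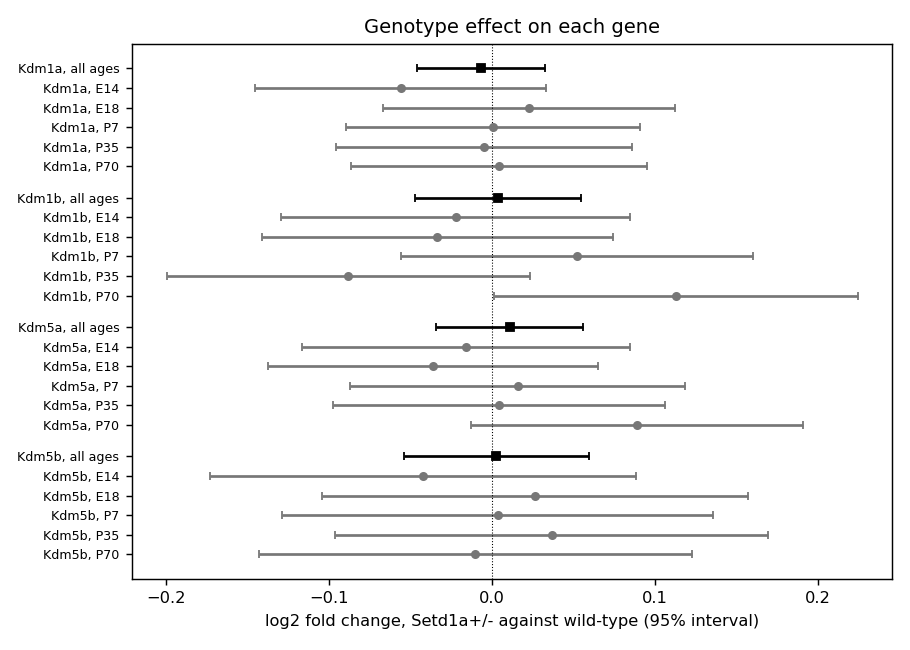
Difference between Setd1a+/- and WT mice in log2 units (horizontal axis) for each demethylase gene at each age and with age as a covariate, with 95% confidence intervals. The intervals with age as a covariate all include 0, and that of *Kdm1b* runs from -3.21% to 3.85% when turned into percent.

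Single ages were read in the same way. By edgeR 0 of the 4 genes were called in the embryonic or the postnatal groups, where in order of age 0.129%, 0.11%, 0.735%, 0% and 0.233% of tested genes were called. Those shares moved with single libraries, as the 21 genes called at E14 were 795 without the 2 libraries with Xist counts and the 120 at P7 were 7 without P7 WT replicate 2, and 0 of the 4 genes were called in either case. Up to P35 0 of the 4 had an unadjusted p under 0.05 by edgeR. At P70 1 of the 4 did, *Kdm1b*, at log2 0.11 (SE 0.0555, unadjusted p 0.0481, adjusted p 0.757), where limma-voom counted 0 and DESeq2 1. The P70 values of *Kdm1b* overlapped, and 3 of the 5 Setd1a+/- values lay inside the WT range. An effect of genotype that changed with age was tested by the interaction, for which 0 of the 4 genes and 0% of tested genes were called, and 0 of the 4 had an unadjusted p under 0.05 by edgeR, limma-voom or DESeq2. The lowest interaction p was that of *Kdm1b* (unadjusted p 0.105, adjusted p 0.869), and it was 0.0362 (adjusted p 0.684) after subtraction of the *Dek* share. Without the 2 libraries that held *Xist* counts, the difference with age as a covariate was log2 -0.0031 for *Kdm1a*, 0.013 for *Kdm1b*, 0.018 for *Kdm5a* and -0.0024 for *Kdm5b*. Without P7 WT replicate 2 it was log2 -0.00092, 0.0018, 0.016 and 0.0023, and none of the 4 genes was called in either case.

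Genes whose proteins work with the 4 enzymes were counted as lists. In WT mice from E14 to P70, 14 of 14 tested genes on a list of *Kdm1a* partners were called lower, with a median change of log2 -1.83. This list, called the CoREST list here, was not limited to subunits of the CoREST complex. Over all tested genes 42.9% were called lower and 42.8% higher there, with a median of log2 -0.0019. The list held 16 genes, of which 2 did not pass the filter on low counts. Its largest falls were those of *Insm1*, a neurogenic transcription factor, from 87.1 to 4.35 RPKM (log2 -4.32), and of *Rcor2*, a CoREST subunit, from 98.1 to 5.63 RPKM (log2 -4.12), followed by *Zfp217*, from 4.29 to 0.629 RPKM (log2 -2.77). By step, 12, 13, 9 and 0 of its 14 genes were called lower in WT mice, and 0, 1, 1 and 0 higher, and *Kdm1a* itself was called lower at each of these steps. The shares of all tested genes by step were 34.1%, 33.4%, 34.3% and 0.527% lower and 31.8%, 33.9%, 32.6% and 0.533% higher. In Setd1a+/- mice the E14 to P70 count was again 14 lower of 14, with a median of log2 -1.76, where 43% of tested genes were called lower and 42.3% higher. *Glyr1*, whose protein binds that of *Kdm1b*, fell from 26.3 to 22.0 RPKM in WT mice (log2 -0.25, adjusted p 7.99e-08), less than *Kdm1b* did.

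Of 17 genes whose proteins are found with the KDM5 enzymes, such as those of the SIN3 and NuRD complexes, 12 were called lower and 4 higher in WT mice from E14 to P70, with a median of log2 -1.25, where 42.9% of tested genes were called lower and 42.8% higher. The largest falls were those of *Mta2*, a NuRD subunit, from 55.4 to 13.1 RPKM (log2 -2.08), and of *Hdac1*, a histone deacetylase also counted in the CoREST list, from 28.1 to 6.93 RPKM (log2 -2.02), followed by *Rbpj*, from 9.76 to 2.53 RPKM (log2 -1.95). The largest rise was that of *Brms1l*, a SIN3 subunit, from 14.1 to 18.5 RPKM (log2 0.39), followed by *Gatad1* (log2 0.26) and *Morf4l1* (log2 0.19). From P7 to P35, the step at which *Kdm5a* rose, 3 of these 17 genes were called higher and 7 lower in WT mice, where 32.6% of tested genes were called higher and 34.3% lower. In Setd1a+/- mice 12 were called lower and 4 higher from E14 to P70, with a median of log2 -1.15, where 43% of tested genes were called lower and 42.3% higher.

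Of 22 other lysine demethylase genes, 15 were called lower and 4 higher in WT mice from E14 to P70, with a median of log2 -0.81, where 42.9% of tested genes were called lower and 42.8% higher. The same numbers were called in Setd1a+/- mice, with a median of log2 -0.78, where 43% of tested genes were called lower and 42.3% higher. The Y-linked *Kdm5d* (log2 -0.83, SE 0.505) and *Uty* (log2 -0.19, SE 0.477) were not called in WT mice. E14 WT replicate 5, which held *Xist* counts, had 0 counts over the 4 Y-linked genes read above. *Kdm2b* fell from 16.6 to 2.25 RPKM (log2 -2.89) and *Kdm6b*, which acts on another lysine of histone H3, from 43.9 to 6.19 RPKM (log2 -2.83), each more than *Kdm1a* did, and *Kdm4a* from 43.8 to 9.82 RPKM (log2 -2.16). *Kdm4d* rose from 0.0688 to 0.390 RPKM (log2 2.49), *Hr* from 1.74 to 7.85 RPKM (log2 2.18) and *Riox2* from 1.71 to 2.43 RPKM (log2 0.50). By step, 15, 15, 6 and 0 of the 22 were called lower in WT mice, and 3, 2, 5 and 0 higher, where the shares of tested genes were 34.1%, 33.4%, 34.3% and 0.527% lower and 31.8%, 33.9%, 32.6% and 0.533% higher. From P7 to P35 the list was near or under those shares. All 7 genes of enzymes that add methyl groups to the same lysine were called lower from E14 to P70 in WT mice, where 42.9% of tested genes were.

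The lists were also read by genotype, with age as a covariate. *Riox2*, among the 22 other demethylase genes, was higher in Setd1a+/- mice (log2 0.15, SE 0.0383, adjusted p 0.0114), and it was called in all 63 fits tried. It was the only gene of its list called, 1 of 22, where 4.43% of tested genes were called, a share that is near and gives no result about the list. *Glyr1* was not called (log2 0.016, adjusted p 0.766). The medians of the lists were log2 -0.0013 for the other demethylases and -0.024 for the CoREST list, against 0.0012 over all tested genes.

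Genes with the nearest profile to each member were found by the root mean square (RMS) difference, in log2 units, between the centred means of the 10 groups. Among the nearest to *Kdm1a* were *Dnmt1* (0.0518) and *Trim28* (0.0657), against a median RMS of 0.911 over all tested genes. Nearest to *Kdm1b* were *Ralgps2* (0.0610), *Usb1* (0.0633) and *Pabpc1* (0.0745), against a median of 0.793. These distances were thus small beside the changes with age. All distances here took *Kdm1b* as counted. Subtracting the *Dek* share moved its WT step from P7 to P35 from log2 -0.999 to -1.34, by more than the distances of its nearest genes. Nearest to *Kdm5a* were *Zbtb17* (0.0614), *Dkc1* (0.0629) and *Emsy* (0.0688), the last of them also among the 17 genes of the KDM5 partners, against a median of 0.610. Nearest to *Kdm5b* were *Zfp292* (0.0555), *Pou3f3* (0.0593) and *Exo5* (0.0632), against a median of 0.885. Between members, the profiles of *Kdm1a* and *Kdm5b* were the closest (RMS 0.164), followed by *Kdm1a* and *Kdm1b* (0.258) and *Kdm1b* and *Kdm5b* (0.350). *Kdm5a* was the farthest from the rest, at 0.516 from *Kdm5b*, 0.600 from *Kdm1a* and 0.602 from *Kdm1b*. No member was therefore among the 3 nearest genes of another, and the closest pair of members took 1 gene from each enzyme class.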

How the data were processed

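Bulk RNA of the frontal cortex was read from 50 deposited tables, 1 for each mouse. Per the file headers and the study's methods, the authors trimmed reads with Trimmomatic, aligned them with STAR to GRCm38 and made raw fragment counts per gene with featureCounts v1.4.6-p2, without regard to strand, counting a fragment over exons of several genes for each of them, and they did not normalize these counts. Gene names and types came from GENCODE vM21, which held 55141 of the 55487 genes. Samples were grouped by the age and genotype of their labels, and no library was left out of the fit reported. Protein-coding genes with at least 10 counts in 5 libraries, scaled for library size (filterByExpr), were tested, 16330 in all. Fits used edgeR 4.0.16 in R 4.3.3 with TMM normalization and the quasi-likelihood F test on 10 group means (or on age and genotype), with Benjamini-Hochberg adjusted p under 0.05 as the call. RPKM used TMM-scaled library sizes and all annotated exonic bases. Profiles used log2 CPM with a prior count of 2. Tables and plots used Python 3.11.15, pandas 2.3.3, numpy 2.4.6 and matplotlib 3.10.9. Alternatives were limma-voom 3.58.1, DESeq2 1.42.0 and its size factors, library size alone, filters on any count or on 10 CPM, all annotated genes, the study's RNA integrity values as a covariate, the replicate number as a block, fits of single ages or of WT mice, and leaving out each library. Subtracting an overlapping gene, the principal transcript length and leaving out the doubtful libraries were added after the data were seen. Genes named from the lists were among the 3 largest changes each way or called by genotype, and nearest profiles among the 3 with the smallest RMS difference, and some genes that met these rules are not reported here. The 4 genes and the lists were chosen with earlier results of these data known. The fits were tested on simulated data, where recovery was lower for genes with few counts. The bar set for recovering changes with age was narrowly missed over all genes, and it was then changed to cover genes with more counts.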

Additional observations from a re-analysis of the deposited data

Results flagged for a closer look

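In 1 of 40 groups of 5 values, 4 genes in 10 groups, the lowest value lay outside the limit of Dixon's test. It was the *Kdm1b* level in P7 Setd1a+/- replicate 4, 8.18 RPKM, where the other 4 mice had 8.67 to 8.82 RPKM. Such a test marks about 1 in 20 groups by chance.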

How the results depend on the processing

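Results were compared over 63 settings, each comparison being of 1 gene and contrast in 1 setting. The genotype results of the 4 genes kept their outcome in all 1756 comparisons. Their age results did so in 2494 of 2500, with 5 weaker, 1 stronger and 0 reversed, and the cause was not tested. The omission of P7 WT replicate 2 counts 2 times here. A change of sign was counted as reversed only where a result was called, and signs of uncalled results did change. For example, the uncalled WT step of *Kdm5b* from P35 to P70 ran from log2 -0.014 to 0.059. With the *Dek* share subtracted, the *Kdm1b* step from E14 to E18 was log2 -0.13 in WT and -0.084 in Setd1a+/- mice and was not called. Its mean was then, in order of age, 8.56, 7.84, 6.55, 2.59 and 2.16 RPKM in WT and 8.3002, 7.83, 6.97, 2.32 and 2.41 in Setd1a+/- mice. The WT step of *Kdm1a* from P35 to P70 was not called with only the 25 WT libraries (log2 -0.21, adjusted p 0.0959), without P35 WT replicate 5 (log2 -0.20, adjusted p 0.0517) or without P70 WT replicate 2 (log2 -0.18, adjusted p 0.0848), and over all settings it ran from log2 -0.23 to -0.18. The same step of *Kdm1b* ran from log2 -0.26 to -0.13 and was called without P70 WT replicate 4 (log2 -0.21, adjusted p 0.0464). With library size alone the mean of *Kdm1a* was 57.4 RPKM in E14 Setd1a+/-, 13.3 in P35 WT and 13.2 in P35 Setd1a+/- mice, and with DESeq2 size factors 14.01 in P35 WT mice. With library size alone *Kdm1b* was 4.01 RPKM in P35 WT, *Kdm5a* 3.48 in P35 Setd1a+/-, 3.37 in P70 WT and 3.58 in P70 Setd1a+/-, and *Kdm5b* 3.66 in P70 Setd1a+/- mice. With the principal transcript length, in order of age, *Kdm1a* was 98.03, 66.5, 37.2, 23.9 and 20.7 RPKM in WT and 94.3, 67.5, 37.3, 23.8 and 20.7 in Setd1a+/- mice. *Kdm1b* was then 14.5, 11.4, 9.19, 4.598 and 4.097 in WT and 14.3, 11.1, 9.53, 4.33 and 4.43 in Setd1a+/- mice. *Kdm5a* was 8.77, 6.19, 3.44, 4.6995 and 4.59 in WT and 8.68, 6.03, 3.47, 4.71 and 4.88 in Setd1a+/- mice. *Kdm5b* was 28.3, 21.99, 9.51, 7.31 and 7.39 in WT and 27.5, 22.4, 9.54, 7.50 and 7.33 in Setd1a+/- mice.

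How many of all tested genes were called moved more than the results of the 4 genes. By genotype with age as a covariate 723 were called, and 637 to 787 when 1 library was left out. At E14 21 were called, 114 by DESeq2, 795 without the 2 libraries with Xist counts and 1 to 747 with 1 library left out. At E18 18 were called, 111 by DESeq2 and 7 to 151 with 1 library left out. At P7 120 were called, 16 by limma-voom, 7 without P7 WT replicate 2 and 7 to 212 with 1 library left out. At P70 38 were called, and 7 to 92 with 1 library left out, and at P35 0, and 0 to 5. The interaction had 0 calls, 21 by DESeq2. From P35 to P70 173 were called in WT mice (46 to 277 with 1 library left out) and 487 in Setd1a+/- mice (from 39.4% of that count to 1030.0 genes with 1 library left out). *Kdm3a* (log2 0.099, adjusted p 0.0322) joined *Riox2* among the called genes of its list without P7 WT replicate 2. The sample labels tie mice of the same replicate number to no litter or batch. The correlation of their deviations was over 0.1 in 9 of 25 pairs (median 0.0636), and 7 WT libraries were closest to their own number. The study's methods mention littermates at the postnatal ages, and litters were not part of the fits. The replicate block changed no call of the 4 genes and moved the count at P7 from 120 to 20.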
